A study of Mus musculus with 9 samples.

Results

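The genes of the lysosomal enzymes and of the vacuolar proton pump were followed in mouse kidney after ischemia and reperfusion. The set held 49 of the 29678 genes in the count tables, taken by gene symbol, and all 49 had enough counts to be tested. They comprised 4 membrane proteins, 9 peptidases, 10 glycosidases, 4 sulfatases, 5 hydrolases of lipids and phosphates, 3 activators and secreted cofactors, 4 proteins of cholesterol and ion transport, 2 transcription regulators and 8 genes of the proton pump.

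The lysosome is the compartment in which cells break down proteins, glycans and lipids that arrive by endocytosis, phagocytosis and autophagy. A proton pump of the V-ATPase type acidifies it, and its soluble hydrolases work at that low pH. Tubule cells of the kidney take up filtered protein and pass it to lysosomes, and the transcription factors Tfeb and Tfe3 are known to bind the CLEAR element in promoters of lysosomal genes.

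Kidney tissue was taken 24 h after reperfusion in 3 groups, and its poly(A) RNA was sequenced. The sham group had the operation without ischemia. The bIRI group had bilateral ischemia-reperfusion injury, in which blood flow to both kidneys is interrupted and restored. The BHBNa_bIRI group was given sodium beta-hydroxybutyrate, a ketone body that tissues use as fuel, before that injury. Strain, age, dose and the interval between pretreatment and ischemia were not given in the labels, nor was the number of mice.

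Of 9 deposited tables, the second of bIRI held, in 29678 of 29678 genes, the average of the first and the third after rounding down. It was left out, so that sham had 3 libraries, bIRI had 2 and BHBNa_bIRI had 3. Total counts ran from 33477985 to 45909063 per library. Values are CPM, counts relative to library sizes scaled by TMM (trimmed mean of M-values), where 3 counts, the smallest count read as a signal, equal 0.0646 to 0.0815 CPM. No label ties a library to an animal of its own, so the p-values measure the spread between libraries only, which may be technical. A gene was called at an adjusted p of 0.05 in edgeR's quasi-likelihood test, with Benjamini-Hochberg adjustment over the 17967 genes tested, and fold changes are on the log2 scale with their standard error (SE).

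Both bIRI libraries differed from each other more than the libraries of the other groups did. The coefficient of variation of a member had a median of 7.03% in sham, 23.2% in bIRI and 11.1% in BHBNa_bIRI. Of the 49 genes, 35 were higher in bIRI replicate 1 and 14 in bIRI replicate 3. More than a 2-fold excess in bIRI replicate 1 was seen for 8 members, and in bIRI replicate 3 for 0, while 9.43% of all genes tested had such an excess in bIRI replicate 1. In either direction 16.3% of members were more than 2-fold apart, beside 21.6% of all genes tested. The median log2 of replicate 1 over replicate 3 was 0.31 for the members and -0.02 for all genes tested. The 5 markers of the thick ascending limb summed to 1544 CPM in bIRI replicate 1 and 4406 in replicate 3, beside 2177 to 3722 in sham and 316 to 907 in BHBNa_bIRI, where 3 of 5 were lower than in bIRI. The 5 markers of collecting duct principal cells summed to 514 and 1044 CPM in both bIRI libraries, beside 681 to 851 in sham and 874.5 to 1024 in BHBNa_bIRI. These 5 did not move together. Against sham 1 rose and 1 fell in bIRI, and 2 rose and 3 fell in BHBNa_bIRI. Markers of the proximal tubule were abundant in sham, with a summed level of 16352.5 to 17330 CPM, and 8 of 8 were lower in bIRI, at 2253 and 2994 CPM. In BHBNa_bIRI the proximal tubule markers summed to 2599 to 2811 CPM. The part of these 3 kinds of cell in the results was not tested.

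Promoters were searched for the CLEAR core, the E-box CACGTG with T before it and A after it. RefSeq promoter windows of 300 bases on GRCm38.p6, from 250 bases before to 50 bases after a transcript start, were at hand for 43 of the 49 genes. The motifs read the same on both strands, and each core is also counted as an E-box. The core occurred in 7 of 43 members (16.3%), which were Ctsa, Ctsd, Gla, Mcoln1, Cln3, Atp6v1a and Atp6v0d1. Among 12454 tested genes with a window, 1.91% held it. The plain E-box was in 14 of 43 members (32.6%) and in 10.9% of those tested genes. No window was at hand for Npc1, Ctsh, Asah1, Atp6v1b2, Atp6v1c1 and Ctsb. Cores of the 5 genes that passed the test in some comparison are printed below, 5′ to 3′ on the gene's strand, with capitals marking the core.
Ctsa, chr2:164833749-164833778, plus strand: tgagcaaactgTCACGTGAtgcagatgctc
Ctsa, chr2:164833766-164833795, plus strand: gatgcagatgcTCACGTGAccagagctaca
Ctsd, chr7:142387908-142387937, minus strand: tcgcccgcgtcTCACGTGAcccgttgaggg
Mcoln1, chr8:3500462-3500491, plus strand: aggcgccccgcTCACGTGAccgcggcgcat
Atp6v1a, chr16:44139373-44139402, minus strand: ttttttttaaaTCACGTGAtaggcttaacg
Atp6v0d1, chr8:105566050-105566079, minus strand: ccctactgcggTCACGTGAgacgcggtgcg
Ctsa holds the core at 2 sites, whose printed windows overlap. The letters describe these windows and measure no binding.

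Bilateral ischemia and reperfusion were followed by lower levels of most of these genes. In bIRI against sham 27 of the 49 fell and 2 rose, while 20 were not called. Over all genes tested 16.2% fell and 18.9% rose. The median log2 fold change was -0.70 for the 49 genes and 0.08 for all genes tested. In each of the 29 called members the bIRI and sham libraries did not overlap. With so few libraries this mostly follows from the call, and the share over all genes was not taken. Together the 49 genes held 1.34% to 1.44% of counts in sham, 1.26% and 1.01% in bIRI, and 0.947% to 1.13% in BHBNa_bIRI. In whole-kidney RNA, fewer cells of a type and less RNA per cell cannot be told apart.

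**Figure D1:**
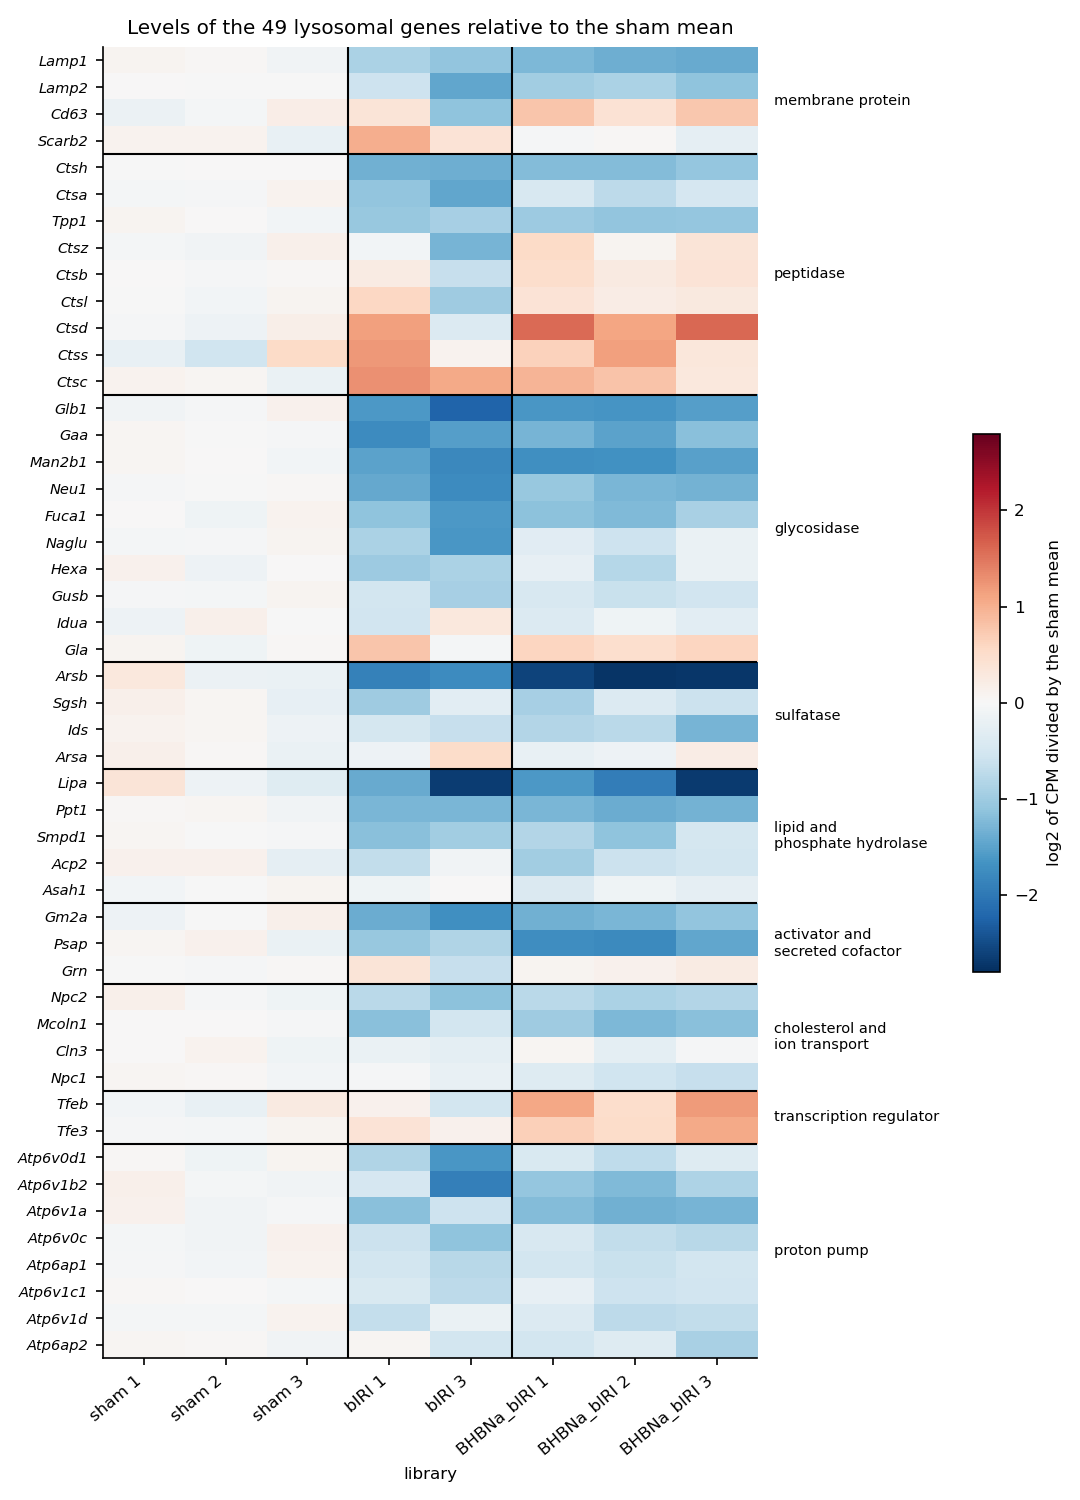
Levels of the 49 genes in the 8 libraries, as the log2 of CPM divided by the sham mean, with genes in rows grouped by role and libraries in columns. Blue marks lower and red higher levels than in sham. Glycosidases and pump genes are mostly blue in all 5 injured libraries, whereas Ctsd, Ctsc, Tfeb and Tfe3 are red in all 3 BHBNa_bIRI libraries. So are Cd63, Ctsb, Ctsl, Ctss, Ctsz, Gla and Grn, which were not called against sham.

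Glycosidases, which trim sugars from glycoproteins and glycolipids, had the most calls. In bIRI 8 of 10 fell and 0 rose, with a median log2 fold change of -1.28. Glb1, the beta-galactosidase that cuts ganglioside GM1, had 205, 214 and 236 CPM in sham, 71.8 and 46.1 in bIRI, and 70.9, 69.5 and 74.4 in BHBNa_bIRI. Gaa, the glucosidase that degrades glycogen, had 131, 126 and 125 CPM in sham, 37.4 and 43.7 in bIRI, and 51.9, 45.1 and 56.8 in BHBNa_bIRI. Man2b1, an alpha-mannosidase, had 199, 194 and 181 CPM in sham, 67.9 and 54.8 in bIRI, and 57.9, 58.8 and 66.6 in BHBNa_bIRI. All 5 injured libraries lay below sham for these genes, and bIRI was at 27.0% of sham for Glb1, 31.8% for Gaa and 32.1% for Man2b1. The bIRI log2 fold changes were -1.89 for Glb1 (SE 0.22, adjusted p = 0.000354), -1.65 for Gaa (SE 0.18, adjusted p = 0.000243) and -1.64 for Man2b1 (SE 0.18, adjusted p = 0.000274).

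Neu1, the sialidase that removes terminal sialic acids, had 605, 608 and 631 CPM in sham, 229 and 181 in bIRI, and 296, 254 and 247 in BHBNa_bIRI. Fuca1, an alpha-fucosidase, had 353, 325 and 376 CPM in sham, 160.4 and 115 in bIRI, and 157, 149 and 187 in BHBNa_bIRI. Their bIRI levels were 33.3% and 39.2% of sham, with log2 fold changes of -1.58 for Neu1 (SE 0.21, adjusted p = 0.000629) and -1.35 for Fuca1 (SE 0.22, adjusted p = 0.00169). Naglu, which takes part in heparan sulfate breakdown, had 59.3, 60.1 and 64.1 CPM in sham, 33.1 and 19.9 in bIRI, and 49.4, 41.0 and 53.5 in BHBNa_bIRI. Hexa, the alpha subunit of hexosaminidase A, had 57.5, 47.7 and 53.3 CPM in sham, 26.2 and 28.7 in bIRI, and 44.8, 30.4 and 46.6 in BHBNa_bIRI. Gusb, the beta-glucuronidase, had 40.6, 39.8 and 43.2 CPM in sham, 29.0 and 21.7 in bIRI, and 30.3, 26.9 and 28.3 in BHBNa_bIRI. For Naglu and Hexa the BHBNa_bIRI libraries lay between bIRI and sham without touching either, whereas for Gusb they overlapped with bIRI. The bIRI fold changes were -1.21 for Naglu (SE 0.23, adjusted p = 0.00405), -0.94 for Hexa (SE 0.21, adjusted p = 0.00842) and -0.70 for Gusb (SE 0.18, adjusted p = 0.0137). Gla and Idua, at 7.10 to 8.15 CPM and 8.10 to 9.91 CPM in sham, were not called in any comparison.

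Among the sulfatases, which remove sulfate groups from glycosaminoglycans and glycolipids, 2 of 4 fell in bIRI. Arsb, the arylsulfatase that acts on dermatan sulfate, had 282, 205 and 202 CPM in sham, 61.9 and 67.4 in bIRI, and 38.2, 34.1 and 34.8 in BHBNa_bIRI. The order sham, bIRI, BHBNa_bIRI held without overlap, and bIRI stood at 28.2% of sham (log2 fold change -1.83, SE 0.21, adjusted p = 0.000306). Exons of Arsb share 39.9% of their bases with the predicted genes Gm26527 and Gm47210 on the opposite strand, and reads of the 3 cannot be told apart without the strand setting. Ids, the iduronate sulfatase, had 68.4, 66.1 and 57.8 CPM in sham, 45.9 and 40.7 in bIRI, and 36.2, 37.7 and 26.1 in BHBNa_bIRI. Its call in bIRI lay at the threshold (log2 fold change -0.57, SE 0.20, adjusted p = 0.0499) and was lost without any 1 sham library, bIRI replicate 3 or BHBNa_bIRI replicates 1 or 2, with adjusted p from 0.0625 to 0.133. Arsa and Sgsh were not called in any comparison.

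Of the hydrolases of lipids and phosphates, 3 of 5 fell in bIRI and 0 rose. Lipa, the acid lipase that frees cholesterol from its esters, had 366, 257 and 225 CPM in sham, 106 and 45.0 in bIRI, and 92.8, 73.6 and 44.4 in BHBNa_bIRI. Ppt1, which removes palmitate from proteins, had 148, 150.3 and 134 CPM in sham, 59.7 and 59.4 in bIRI, and 59.5, 55.0 and 57.9 in BHBNa_bIRI. Smpd1, the acid sphingomyelinase, had 119, 115 and 112 CPM in sham, 51.3 and 58.2 in bIRI, and 65.0, 52.9 and 82.2 in BHBNa_bIRI. In each of the 3 every injured library was below every sham library. Lipa had a bIRI fold change of -1.91 (SE 0.43, adjusted p = 0.00833), or -1.42 without bIRI replicate 3, beside -1.28 for Ppt1 (SE 0.16, adjusted p = 0.000471) and -1.07 for Smpd1 (SE 0.21, adjusted p = 0.00414). Asah1, the acid ceramidase, and Acp2, an acid phosphatase, were not called in bIRI.

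Peptidases did not move as one group. In bIRI 3 of 9 fell, 1 rose and 5 were not called, with a median log2 fold change of -0.14. Ctsh, a cysteine cathepsin that also acts as an aminopeptidase, had 309, 311 and 311 CPM in sham, 122 and 119.7 in bIRI, and 133, 133 and 147 in BHBNa_bIRI. Ctsa, the serine carboxypeptidase that protects Glb1 and Neu1 in a complex, had 331, 335 and 366 CPM in sham, 159.9 and 125 in bIRI, and 253, 206 and 250.1 in BHBNa_bIRI. Tpp1, a tripeptidyl peptidase, had 279, 269 and 252 CPM in sham, 129 and 141 in bIRI, and 132, 124 and 126 in BHBNa_bIRI. For these the bIRI levels were 39.0%, 41.4% and 50.4% of sham, and no injured library reached a sham library. The log2 fold changes were -1.36 for Ctsh (SE 0.17, adjusted p = 0.000502), -1.27 for Ctsa (SE 0.21, adjusted p = 0.00168) and -0.99 for Tpp1 (SE 0.17, adjusted p = 0.00232).

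Ctsc, the dipeptidyl peptidase that activates serine proteases of granulocytes, went the other way. It had 27.95, 27.2 and 23.0 CPM in sham, 63.1 and 54.6 in bIRI, and 50.05, 45.1 and 32.0 in BHBNa_bIRI, so that both bIRI libraries lay above all others. The rise in bIRI was 2.26-fold (log2 fold change 1.17, SE 0.21, adjusted p = 0.00268) and was the largest of the 49 genes. Neutrophil markers also moved, and their part in these levels was not tested. The 9 markers summed to 0.982 to 1.71 CPM in sham, 5.30 and 13.4 in bIRI, and 38.8 to 68.2 in BHBNa_bIRI, with Cxcr2, Retnlg, Ly6g, Camp and Ngp at 0 in at least 1 library. The 12 markers of macrophages and monocytes summed to 132 to 217 CPM in sham, 139 and 159.5 in bIRI, and 212 to 259 in BHBNa_bIRI. Of these 12, 2 rose, 2 fell and 8 were not called in bIRI against sham. In BHBNa_bIRI against sham 5 rose, 2 fell and 5 were not called.

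The other 5 peptidases, Ctsb, Ctsd, Ctsl, Ctss and Ctsz, were not called in bIRI, and bIRI replicate 1 was above replicate 3 for each. Ctsd, the aspartic cathepsin, had 446, 414 and 512 CPM in sham, 1012 and 350.1 in bIRI, and 1368, 989 and 1392 in BHBNa_bIRI. One bIRI library was thus above sham and the other below it, and the log2 fold change of 0.57 (SE 0.38, adjusted p = 0.273) became -0.46 without bIRI replicate 1 and 1.15, a call (adjusted p = 0.00194), without bIRI replicate 3. Exons of Ctsd share 34.4% of their bases with the predicted gene Gm49369 on the same strand. Those of Ctsl share 26.8% with Gm47123 and Gm49230, and those of Ctsa 17.4% with Pltp and Neurl2 on the opposite strand. Ctss, a cysteine cathepsin of antigen-presenting cells, had the highest value among the members not called (0.77, SE 0.40, adjusted p = 0.164), which was 0.04 without bIRI replicate 1 and 1.22, a call (adjusted p = 0.0363), without bIRI replicate 3. The 8 genes named cathepsins summed, without Tpp1, to 2774 to 3053 CPM in sham, 3620 and 1645 in bIRI replicates 1 and 3, and 3432 to 4235 in BHBNa_bIRI.

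Membrane proteins were split too, with 2 of 4 lower and 1 higher in bIRI. Lamp1, an abundant glycoprotein of the lysosomal membrane, had 1338, 1298 and 1186 CPM in sham, 689 and 591 in bIRI, and 529.7, 494 and 481 in BHBNa_bIRI. Lamp2, its relative that also serves chaperone-mediated autophagy, had 1019.7, 1008 and 1003 CPM in sham, 676 and 368 in bIRI, and 516, 547 and 464 in BHBNa_bIRI. Scarb2, the receptor that carries glucocerebrosidase to lysosomes, had 61.8, 61.8 and 50.2 CPM in sham, 117 and 75.4 in bIRI, and 57.0, 59.2 and 48.4 in BHBNa_bIRI. Lamp1 and Lamp2 were below sham in all 5 injured libraries, whereas Scarb2 was above sham in both bIRI libraries only. The bIRI log2 fold changes were -0.99 for Lamp1 (SE 0.21, adjusted p = 0.00577), -0.95 for Lamp2 (SE 0.27, adjusted p = 0.0235) and 0.73 for Scarb2 (SE 0.21, adjusted p = 0.0256). The Lamp2 call was lost without any 1 sham library (adjusted p 0.0578 to 0.0669), and its value was -1.53 without bIRI replicate 1 and -0.58 without bIRI replicate 3. That of Scarb2 was lost in the same 3 cases (adjusted p 0.0582 to 0.0872) and without bIRI replicate 1, where the fold change was 0.31 (adjusted p = 0.204). Cd63, a tetraspanin of late endosomes, was not called, at 1117 to 1433 CPM in sham and at 1613 and 574 CPM in bIRI.

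Activators hold lipids ready for their hydrolases, and 2 of the 3 genes in that group fell in bIRI. Psap, the precursor of the saposins, had 2658, 2812 and 2243 CPM in sham, 1239 and 1429 in bIRI, and 768, 753 and 942 in BHBNa_bIRI. Gm2a, the activator of GM2 ganglioside breakdown, had 431, 473 and 522 CPM in sham, 182 and 144 in bIRI, and 187, 195 and 220.5 in BHBNa_bIRI. Psap stood in 3 separate steps from sham to BHBNa_bIRI, while all injured libraries of Gm2a lay at or below 220.5 CPM. The fold changes in bIRI were -0.95 for Psap (SE 0.24, adjusted p = 0.0133) and -1.54 for Gm2a (SE 0.21, adjusted p = 0.000731), and the Psap call was lost without sham replicate 1 (adjusted p = 0.0513) or 2 (adjusted p = 0.0551). Grn, the progranulin gene, had 208 to 217 CPM in sham against 274 and 135 CPM in bIRI and was not called.

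In cholesterol and ion transport 2 of 4 genes fell in bIRI. Npc2, the soluble protein that hands cholesterol to Npc1, had 193, 172 and 163 CPM in sham, 105 and 79.2 in bIRI, and 105, 94.9 and 99.7 in BHBNa_bIRI. Mcoln1, the calcium channel TRPML1 of the lysosomal membrane, had 60.5, 59.8 and 58.5 CPM in sham, 26.5 and 41.7 in bIRI, and 29.9, 24.8 and 26.5 in BHBNa_bIRI. Both were below sham in every injured library, with bIRI log2 fold changes of -0.94 for Npc2 (SE 0.19, adjusted p = 0.00497) and -0.80 for Mcoln1 (SE 0.21, adjusted p = 0.0157). A correction for transcript length and GC content ended the Mcoln1 call (-0.45, adjusted p = 0.158). Npc1 and Cln3 were not called in bIRI.

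Every pump gene had a negative fold change in bIRI, and 5 of 8 passed the test. The pump has a cytosolic V1 sector that splits ATP and a membrane V0 sector that conducts protons. Atp6v1a, the catalytic V1 subunit, had 415, 359 and 373 CPM in sham, 171 and 255 in bIRI, and 165, 150.2 and 155 in BHBNa_bIRI. Atp6v1c1, which joins V1 to V0, had 114, 112 and 108 CPM in sham, 82.4 and 66.3 in bIRI, and 94.4, 74.3 and 77.2 in BHBNa_bIRI. Their bIRI levels were 55.7% and 67.0% of sham, with log2 fold changes of -0.85 for Atp6v1a (SE 0.22, adjusted p = 0.0151) and -0.58 for Atp6v1c1 (SE 0.18, adjusted p = 0.0337). Atp6v0c, the proteolipid of the proton ring, had 343, 334 and 388 CPM in sham, 235 and 162 in bIRI, and 262, 221 and 209 in BHBNa_bIRI. Atp6v0d1, a V0 subunit between ring and stalk, had 195, 177 and 203 CPM in sham, 106 and 61.6 in bIRI, and 142, 118 and 150.4 in BHBNa_bIRI. Atp6ap1, an accessory protein of pump assembly, had 329.8, 321 and 364 CPM in sham, 238 and 198 in bIRI, and 236, 221 and 236 in BHBNa_bIRI. No injured library reached sham in these 3 genes, and the log2 fold changes were -0.84 for Atp6v0c (SE 0.22, adjusted p = 0.0179), -1.19 for Atp6v0d1 (SE 0.25, adjusted p = 0.00599) and -0.63 for Atp6ap1 (SE 0.19, adjusted p = 0.0259).

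Some pump calls in bIRI rested on single libraries. Without sham replicate 3 Atp6v0c was not called (adjusted p = 0.0566), and without sham replicate 1 Atp6v1a was not called (adjusted p = 0.0556). Atp6v1c1 was lost without any 1 sham library or bIRI replicate 3 (adjusted p 0.0675 to 0.0964), and Atp6ap1 without any 1 sham library (adjusted p 0.0662 to 0.0768). The length and GC correction also ended the Atp6ap1 call (-0.30, adjusted p = 0.102). Atp6v1b2, the V1 subunit B2, was just short of the threshold at -1.03 (SE 0.37, adjusted p = 0.0536). Its value was -1.99, a call (adjusted p = 4.9e-05), without bIRI replicate 1 and -0.48 without bIRI replicate 3, and DESeq2 (adjusted p = 0.0148), no filter and all 9 tables called it too. Atp6v1d and Atp6ap2 were not called in bIRI. Summed over the 8 genes, the pump stood at 2075 to 2242 CPM in sham, 1418 and 1074 in bIRI and 1177 to 1334 in BHBNa_bIRI. Named processed copies of Atp6v0c and of Cd63 exist in the annotation, so those counts may hold reads of the copies.

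**Figure D2:**
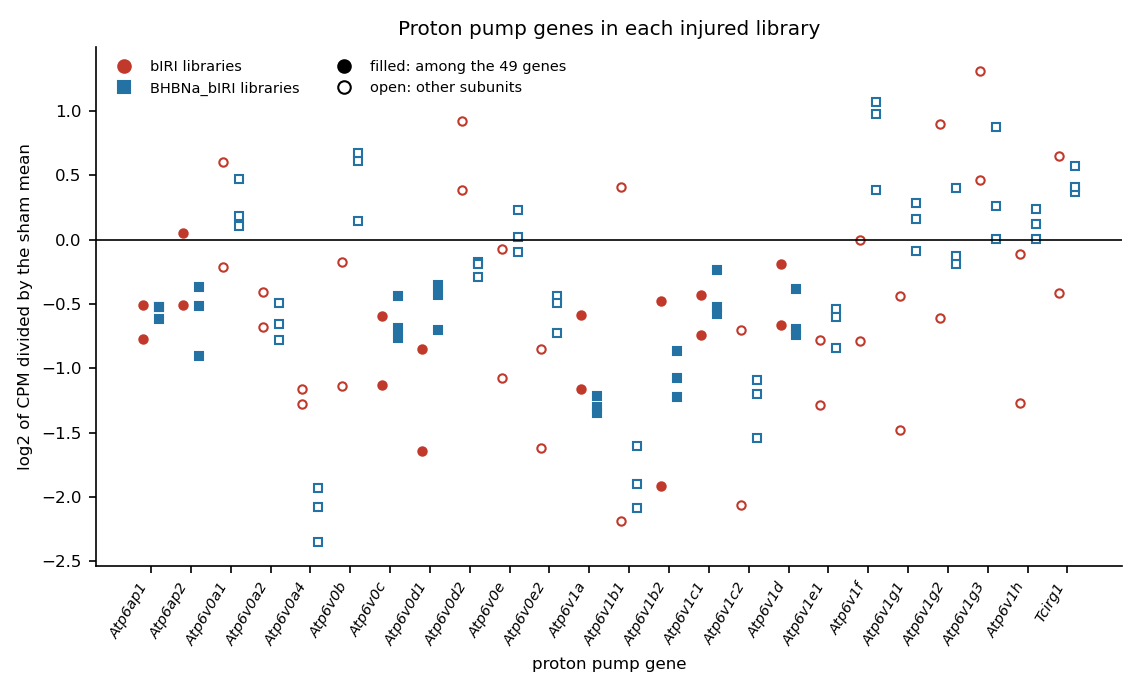
The log2 of CPM divided by the sham mean for each pump gene in each injured library, with circles for bIRI and squares for BHBNa_bIRI, filled for the 8 genes of the set and open for 16 other subunits. Filled points lie below 0 in every library but bIRI replicate 1 of Atp6ap2, whereas open points spread to both sides.

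Other subunits of the pump, which were listed for context, differed more among themselves. Of 16 tested, 5 fell and 2 rose in bIRI. The 2 that rose, named after their values were seen, were Atp6v1g3 (0.95, SE 0.32, adjusted p = 0.0433) and Atp6v0d2 (0.68, SE 0.18, adjusted p = 0.0179), both of intercalated cells. Atp6v0a4, a V0 subunit of intercalated cells and proximal tubule, had 393, 272 and 264 CPM in sham, 128 and 139 in bIRI, and 81.4, 73.4 and 60.7 in BHBNa_bIRI. Its log2 fold change was -1.22 in bIRI (SE 0.24, adjusted p = 0.00418) and -2.11 in BHBNa_bIRI against sham (SE 0.21, adjusted p = 9.08e-05). Atp6v1c2 fell as well in bIRI (-1.23, SE 0.35, adjusted p = 0.0224), though not with the length and GC correction (-0.77, adjusted p = 0.171), and ranged from -2.06 to -0.78 with 1 bIRI library left out. In BHBNa_bIRI against sham Atp6v1b1 fell (-1.85, SE 0.50, adjusted p = 0.0150). The 8 markers of intercalated cells, which include Atp6v0a4, Atp6v1b1, Atp6v1g3 and Atp6v0d2, summed to 656 to 837 CPM in sham, 321 and 553 in bIRI, and 222 to 290.2 in BHBNa_bIRI. In bIRI 2 of them rose, 2 fell and 4 were not called. The part of these cells in the pump levels was not tested.

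Further lysosomal genes outside the set, 98 in all with 97 tested, were also mostly lower, with 43 that fell and 5 that rose in bIRI and a median log2 fold change of -0.60. Ctsf, another cysteine cathepsin, had the lowest value among them (-2.18, SE 0.24, adjusted p = 0.000280). Next was Smpdl3a, a phosphodiesterase related to Smpd1 (-2.13, SE 0.25, adjusted p = 0.000360). Cd68, a lysosomal membrane glycoprotein abundant in macrophages, rose from 3.21, 3.74 and 5.89 CPM in sham to 37.0 and 20.8 in bIRI (log2 fold change 2.76, SE 0.35, adjusted p = 0.000533). It is among the macrophage and monocyte markers summed above, of which 2 rose and 2 fell in bIRI. Tmem175, an ion channel of the lysosome, fell (-1.43, SE 0.22, adjusted p = 0.00140). Of enzyme sorting, 4 of 8 genes fell, among them Gnptg, of the enzyme that makes the mannose 6-phosphate tag (-1.05, SE 0.21, adjusted p = 0.00424), and Igf2r, a receptor for that tag (-0.76, SE 0.17, adjusted p = 0.00821). Of nutrient sensing, 7 of 17 fell, among them Mtor, the kinase that keeps Tfeb in the cytosol (-1.32, SE 0.20, adjusted p = 0.00114), and Lamtor5, part of its anchor on the lysosome (-1.53, SE 0.25, adjusted p = 0.00187).

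The regulators Tfeb and Tfe3 were not among the genes that fell in any comparison. Tfeb had 23.6, 21.7 and 29.8 CPM in sham, 27.3 and 17.6 in bIRI, and 52.8, 35.3 and 56.8 in BHBNa_bIRI. Tfe3 had 33.1, 32.7 and 36.0 CPM in sham, 44.6 and 37.0 in bIRI, and 54.1, 48.4 and 70.6 in BHBNa_bIRI. For both genes, as for the peptidase Ctsb and for Cd63, all 3 BHBNa_bIRI libraries were above all 5 other libraries. Neither Tfeb nor Tfe3 was called in bIRI against sham. Their log2 fold changes were -0.16 for Tfeb (SE 0.27, adjusted p = 0.685) and 0.26 for Tfe3 (SE 0.19, adjusted p = 0.317). The Tfeb value was -0.58 without bIRI replicate 1 and 0.13 without bIRI replicate 3. That of Tfe3 was 0.05 without bIRI replicate 1, and with the length and GC correction it was 0.45 and called (adjusted p = 0.0496).

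**Figure D3:**
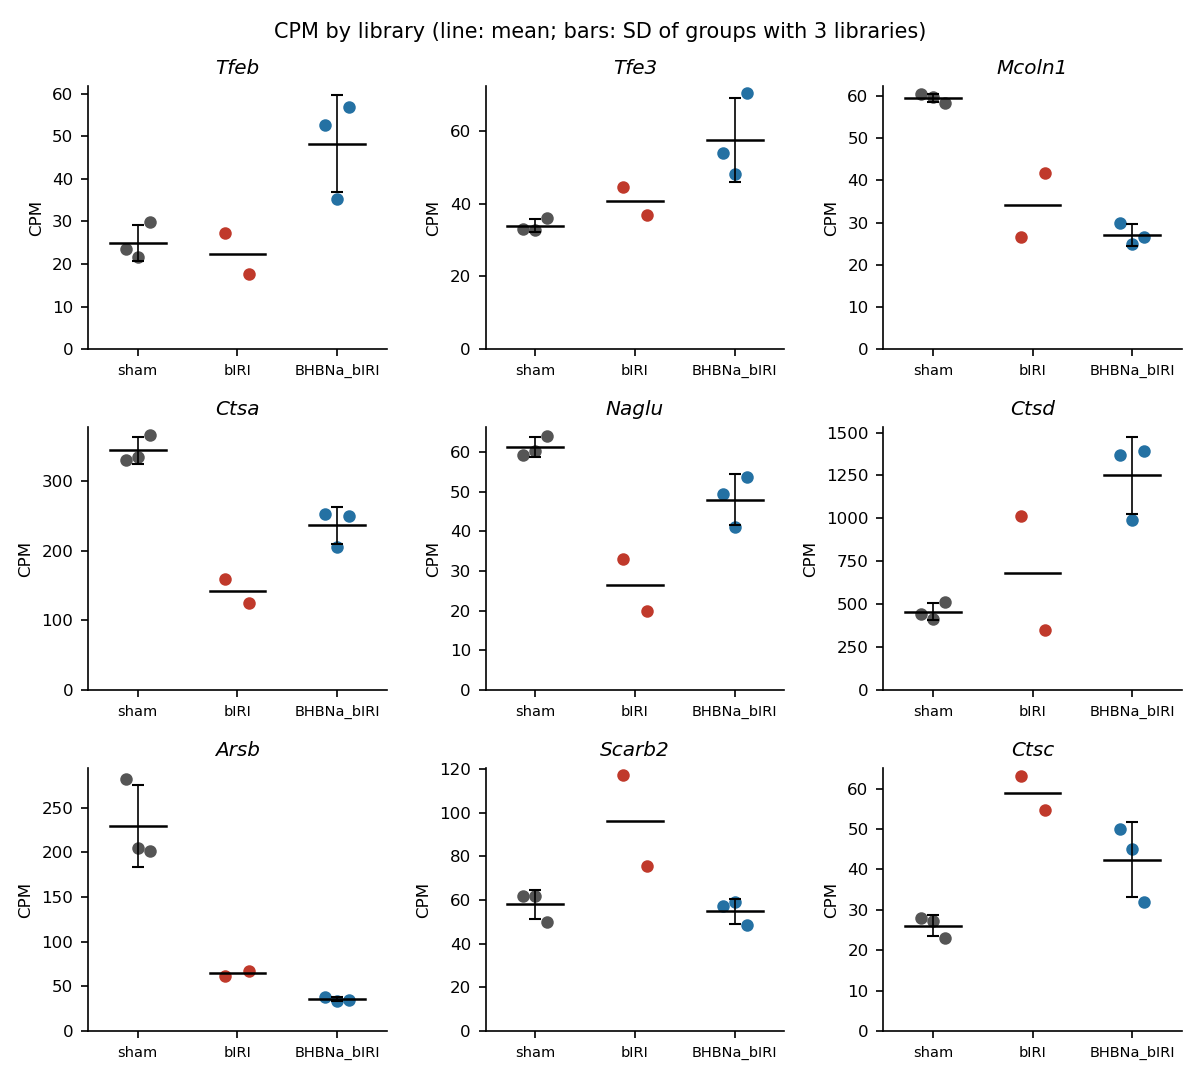
CPM of 9 genes in each library by group, with a line at the group mean and bars for the SD of groups with 3 libraries. Tfeb, Tfe3 and Ctsd have their highest mean in BHBNa_bIRI, Arsb falls in steps from sham to BHBNa_bIRI, and Scarb2 and Ctsc are highest in bIRI.

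The second comparison asked whether pretreatment with beta-hydroxybutyrate changed these genes within injury. In BHBNa_bIRI against bIRI 3 of the 49 rose, 2 fell and 44 were not called. Over all genes tested 4.88% rose and 8.65% fell. The median log2 fold change was 0.12 for the 49 genes and -0.05 for all genes tested. Without bIRI replicate 1 these medians were 0.36 and -0.04, and without bIRI replicate 3 they were -0.01 and 0.04. The genes that rose were Tfeb (1.11, SE 0.27, adjusted p = 0.0357), Naglu (0.86, SE 0.23, adjusted p = 0.0411) and Ctsa (0.73, SE 0.20, adjusted p = 0.0435). Those that fell were Arsb (-0.86, SE 0.19, adjusted p = 0.0308) and Scarb2 (-0.81, SE 0.21, adjusted p = 0.0399). In each of the 5 the BHBNa_bIRI libraries did not overlap with bIRI, which again mostly follows from the call. Pretreated kidneys had 2.15-fold the bIRI level of Tfeb, 1.81-fold that of Naglu and 1.66-fold that of Ctsa. The level of Arsb was 55.2% and that of Scarb2 57.0% of bIRI.

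None of these 5 calls held under every alternative that was run. They numbered 0 without sham replicate 1, sham replicate 2, BHBNa_bIRI replicate 1 or BHBNa_bIRI replicate 3, and 1 without sham replicate 3, bIRI replicate 3 or BHBNa_bIRI replicate 2. Calls over all genes went the same way, from 0 or 1 gene in the first 4 of these fits to between 4.27% and 6.49% of genes in the other 3. Without bIRI replicate 1 they numbered 23, of which 19 rose and 4 fell, beside 42.8% of all genes called. In these fits with 1 bIRI library left, that library is assumed to vary like the other groups. After correction for transcript length and GC content 2 of all 17967 genes and 0 members were called, with log2 values of 0.59 for Tfeb (adjusted p = 0.0980), 0.50 for Naglu (adjusted p = 0.124), 0.66 for Ctsa (adjusted p = 0.0703), -0.73 for Arsb (adjusted p = 0.0540) and -0.42 for Scarb2 (adjusted p = 0.248). The unadjusted p was under 0.05 for 12 members as fitted and for 10 after that correction, and DESeq2 without the correction called 8, beside 27.2% of all genes. Scarb2 was at -0.40 without bIRI replicate 1, and Naglu at 1.32 without bIRI replicate 1 and 0.53 without bIRI replicate 3.

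Among the 44 genes not called, log2 fold changes ran from -0.70 for Psap (SE 0.23, adjusted p = 0.0659) to 0.89 for Ctsz, an exopeptidase (SE 0.33, adjusted p = 0.0893). Ctsz had 177, 170.3 and 201 CPM in sham, 174 and 74.0 in bIRI, and 263, 191 and 235 in BHBNa_bIRI. Ctsd (0.88, SE 0.40, adjusted p = 0.151), Cd63 (0.86, SE 0.39, adjusted p = 0.153) and Atp6v0d1 (0.71, SE 0.25, adjusted p = 0.0784) came next. Without bIRI replicate 1 these 4 were called at 1.69 for Ctsz, 1.89 for Ctsd, 1.84 for Cd63 and 1.21 for Atp6v0d1 (adjusted p 0.000250 to 0.000806), and without bIRI replicate 3 they were at 0.40, 0.30, 0.29 and 0.36. Psap was called in the first of these fits as well (-0.75, adjusted p = 0.0153). Cd63 had 2153, 1663 and 2123 CPM in BHBNa_bIRI, all above both bIRI libraries, whereas for Ctsd the lowest BHBNa_bIRI library was under bIRI replicate 1. Tfe3 was at 0.50 (SE 0.20, adjusted p = 0.107) and Mcoln1 at -0.33 (SE 0.20, adjusted p = 0.273). Without bIRI replicate 1 both were called, at 0.69 for Tfe3 (adjusted p = 0.0227) and -0.57 for Mcoln1 (adjusted p = 0.0164), and without bIRI replicate 3 Mcoln1 was at 0.03. Of the pump genes 0 of 8 were called.

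**Figure D4:**
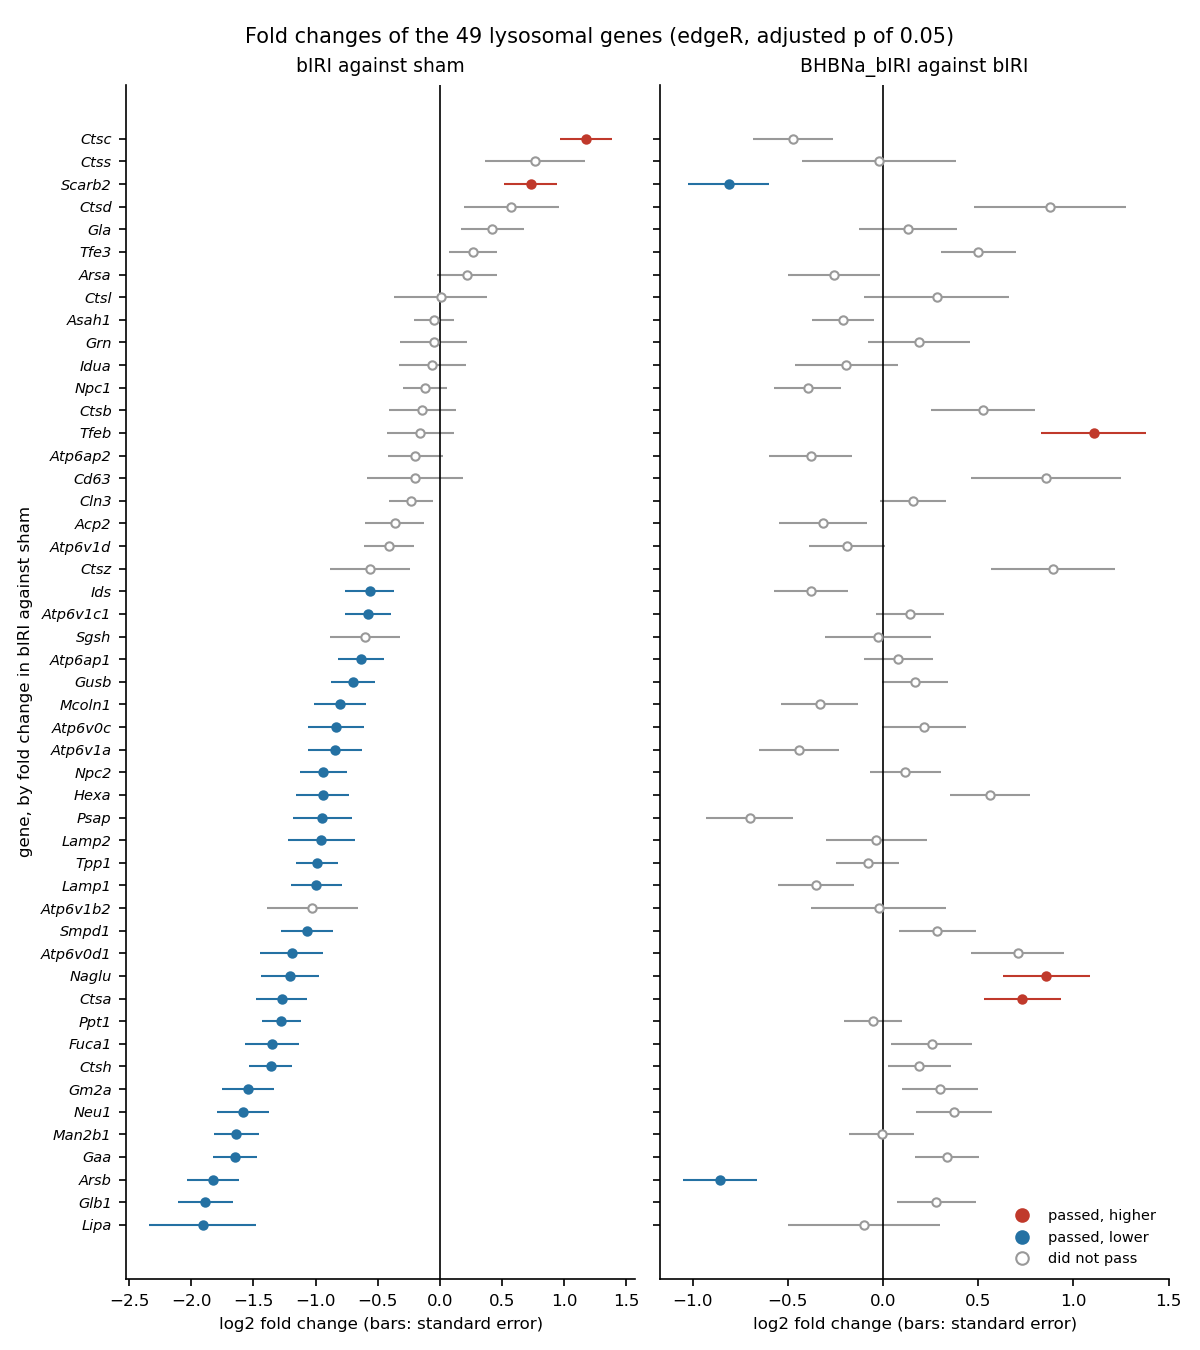
Log2 fold changes of the 49 genes with their standard errors, in bIRI against sham on the left and in BHBNa_bIRI against bIRI on the right, in the order of the left panel; filled points passed an adjusted p of 0.05. On the left most points are below 0, between -1.91 and 1.17, and on the right 3 filled points are above 0 and 2 below.

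The fold changes of pretreatment moved with transcript length and base composition. Across the 49 genes, Spearman's rho with the log2 fold change in BHBNa_bIRI against bIRI was -0.37 for transcript length and 0.53 for GC content. Over all 17928 genes tested with both values it was -0.39 and 0.36. Genes are not independent replicates, and all of them come from the same 5 libraries. In bIRI against sham the values for the 49 genes were 0.06 and -0.18. Of the 5 genes called with pretreatment, Tfeb had the highest GC content of the set, at 63.2%. Naglu had 59.8%, Ctsa 54.5%, Arsb 50.8% and Scarb2 46.3%. In the same order their transcripts had 2342, 2560, 3646, 4038 and 4698 bases. The part of this trend in the 5 calls was not tested.

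**Figure D5:**
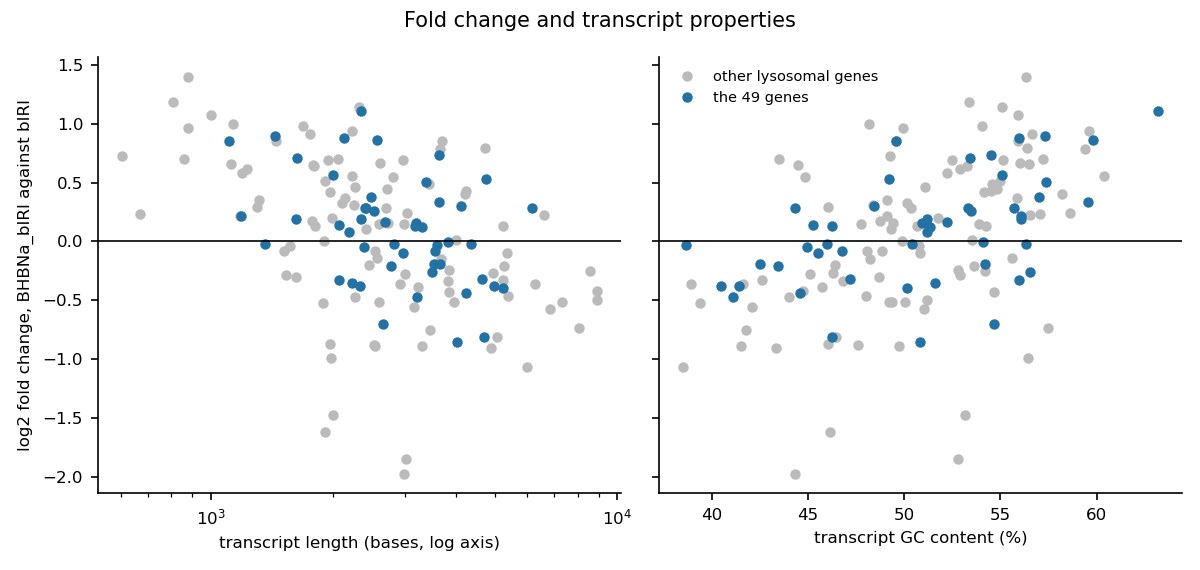
Log2 fold change in BHBNa_bIRI against bIRI, plotted against transcript length in bases (log axis, left) and GC content in percent (right), with the 49 genes in blue and the other lysosomal genes in grey. Points fall with length (rho -0.37 for the 49 genes) and rise with GC content (rho 0.53).

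Among the other lysosomal genes 8 rose and 6 fell in BHBNa_bIRI against bIRI. The pump subunits Atp6v1f (1.18, SE 0.32, adjusted p = 0.0409) and Atp6v0b (1.07, SE 0.30, adjusted p = 0.0467) rose, while Atp6v0a4 (-0.89, SE 0.22, adjusted p = 0.0362) and Atp6v0d2 (-0.89, SE 0.18, adjusted p = 0.0288), named after their values were seen, fell. Others that rose were Lamtor4 (1.40, SE 0.29, adjusted p = 0.0293) and Lamtor5 (0.96, SE 0.25, adjusted p = 0.0378) of the lysosomal mTOR anchor. Spns1, a lysophospholipid exporter, rose too (0.94, SE 0.23, adjusted p = 0.0355). Ctsf fell by 0.99 (SE 0.22, adjusted p = 0.0308) and Tmem106b, a lysosomal membrane protein, by 1.07 (SE 0.18, adjusted p = 0.0275). After the length and GC correction 0 of these other genes were called, with 27 at an unadjusted p under 0.05 and 2 called of all genes tested, while DESeq2 without it called 32. Calls among them also numbered 0 without sham replicate 1, sham replicate 2, BHBNa_bIRI replicate 1 or BHBNa_bIRI replicate 3, where 0 or 1 of all genes were called. None of the calls named here thus held under every alternative. Without bIRI replicate 3 the log2 fold changes were 0.67 for Atp6v0b and -0.63 for Ctsf.

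The third comparison set pretreated injury beside sham. It shares the sham libraries with the first comparison and the pretreated libraries with the second. In BHBNa_bIRI against sham 29 of the 49 fell, 4 rose and 16 were not called, where 22.2% of all genes tested fell and 21.3% rose. The median log2 fold change was -0.58 for the 49 genes and 0.04 for all genes tested. In each of the 33 called members both groups did not overlap, which again mostly follows from the call. The genes that rose were Ctsd (1.45, SE 0.35, adjusted p = 0.00931), Tfeb (0.95, SE 0.24, adjusted p = 0.0108), Tfe3 (0.77, SE 0.17, adjusted p = 0.00687) and Ctsc (0.70, SE 0.19, adjusted p = 0.0150). Ctsd thus stood at 2.73-fold its sham level. The Tfeb call was lost without sham replicate 2 (0.84, adjusted p = 0.0525), and that of Ctsc without sham replicates 2 or 3 or BHBNa_bIRI replicates 1 or 2 (adjusted p 0.0503 to 0.0664).

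Arsb had the lowest value, -2.68 (SE 0.18, adjusted p = 1.73e-05), or 15.6% of sham. Lipa followed at -2.01 (SE 0.37, adjusted p = 0.00236), Psap at -1.65 (SE 0.21, adjusted p = 0.000340), Man2b1 at -1.64 (SE 0.16, adjusted p = 7.17e-05) and Glb1 at -1.61 (SE 0.19, adjusted p = 0.000217). By role, 6 of 10 glycosidases, 3 of 9 peptidases, 2 of 4 sulfatases, 4 of 5 hydrolases of lipids and phosphates, 2 of 3 activators, 3 of 4 transport genes and 2 of 4 membrane proteins fell. Of the pump genes 7 of 8 fell, from -1.29 for Atp6v1a (SE 0.19, adjusted p = 0.000772) to -0.44 for Atp6v1c1 (SE 0.16, adjusted p = 0.0496). Atp6v0d1 was the pump gene not called (-0.49, SE 0.22, adjusted p = 0.0935). Naglu (-0.35, SE 0.20, adjusted p = 0.183), Hexa (-0.38, SE 0.19, adjusted p = 0.122) and Scarb2 (-0.08, SE 0.19, adjusted p = 0.765) were not called either.

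Of the 33 calls against sham in pretreated kidneys, 21 held under every alternative that was run. Leaving out 1 library ended the calls of the pump genes Atp6v0c, Atp6v1b2, Atp6v1c1, Atp6v1d, Atp6ap1 and Atp6ap2 (adjusted p 0.0509 to 0.152), and of Acp2, Ctsa, Gusb and Npc1 (adjusted p 0.0558 to 0.114). Each of these 10 was lost without sham replicate 1 and without sham replicate 2. Those lost without sham replicate 3 were all but Acp2 and Npc1, without BHBNa_bIRI replicate 2 all but Atp6ap2, and without BHBNa_bIRI replicate 3 all but Acp2. Leaving out BHBNa_bIRI replicate 1 ended the calls of Acp2, Ctsa, Atp6v1b2, Atp6ap1 and Atp6ap2. In bIRI against sham 20 of 29 calls held under every alternative.

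Among other lysosomal genes 43 fell and 6 rose in BHBNa_bIRI against sham. Ctsf had -3.17 (SE 0.22, adjusted p = 1.66e-05), while Cd68 rose by 3.37 (SE 0.34, adjusted p = 9.76e-05). Cstb, a cytosolic inhibitor of cysteine cathepsins, rose from 82.0, 81.9 and 99.2 CPM in sham to 411.5, 315 and 331 CPM (log2 fold change 2.01, SE 0.43, adjusted p = 0.00527). The nutrient-sensing genes Fnip2 (-1.71, SE 0.17, adjusted p = 8.31e-05) and Rragd (-1.61, SE 0.24, adjusted p = 0.000805) fell, and so did Igf2r (-1.26, SE 0.15, adjusted p = 0.000254), Sumf1, which activates sulfatases (-1.22, SE 0.15, adjusted p = 0.000281), and Mcoln3, a relative of Mcoln1 (-2.04, SE 0.54, adjusted p = 0.0133).

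Calls were also counted by promoter class, as a description. Of the 7 members with the CLEAR core, 4 fell and 0 rose in bIRI against sham, 1 rose and 0 fell in BHBNa_bIRI against bIRI, and 3 fell and 1 rose in BHBNa_bIRI against sham. Of the 29 members without an E-box in the window, 17 fell and 2 rose in bIRI, 2 fell and 1 rose with pretreatment, and 19 fell and 3 rose in BHBNa_bIRI against sham. Of the 7 members with an E-box but not the core, 4 fell and 0 rose in bIRI, and 1 rose and 0 fell with pretreatment. In BHBNa_bIRI against sham 3 of these fell and 0 rose. The median log2 fold change with pretreatment was 0.16 for the 7 genes with the core. It was 0.28 for the 7 with only the E-box and -0.01 for the 29. In the same order the medians were -0.80, -0.99 and -0.70 in bIRI against sham. In BHBNa_bIRI against sham they were -0.49, -0.63 and -0.62. Over all genes tested 16.2% fell and 18.9% rose in bIRI against sham. With pretreatment 8.65% fell and 4.88% rose, and in BHBNa_bIRI against sham 22.2% fell and 21.3% rose. After the length and GC correction 0 members were called with pretreatment.

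Per kilobase of exon, Psap was the most abundant of the 49 genes in sham, with a mean of 937 CPM per kb. Lamp1 followed at 476, Cd63 at 341, Ctsd at 195 and Neu1 at 165 CPM per kb, and Npc1 was lowest at 1.68 CPM per kb. Of 48 neighbours in this order, 31 overlapped between sham libraries and 17 did not, the latter including the steps between the first 5. In bIRI the means of Psap, Cd63 and Ctsd were 486, 297 and 289.7 CPM per kb, but both libraries differed, with Cd63 at 438 and 156, Ctsd at 430.4 and 149, and Lamp1 at 257 and 221 CPM per kb. BHBNa_bIRI values of Cd63 and Ctsd overlapped. BHBNa_bIRI had Cd63 at 538 and Ctsd at 532 CPM per kb ahead of Psap at 299. Lengths count every annotated exonic base, which can exceed the transcript made in kidney, so these levels are approximate between genes.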

How the data were processed

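Poly(A)-selected kidney RNA was sequenced as paired-end libraries. The submitters' processing notes name HISAT2, featureCounts, Subread and DESeq2 and the build mm10, with versions, annotation and strand not given in the sources used here. Raw counts per gene were deposited by the authors, 1 table a library. Symbols came from GENCODE M21 (29220 of 29678 identifiers). The members and lists were chosen with earlier results of these data known.

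The table of bIRI replicate 2 was left out. The other 8 were fitted with edgeR 4.0.16 in R 4.3.3 (filterByExpr, TMM factors 0.830 to 1.37, robust quasi-likelihood fit, 5 residual degrees of freedom, biological coefficient of variation 0.296). Tests were two-sided, and the SE was the log2 fold change divided by the square root of F. The procedure was tested on simulated data. Alternatives were DESeq2 1.42.0, RLE factors, scaling without mitochondrial and the 20 most abundant genes, no filter, the compared groups only, a replicate block, all 9 tables, splines in transcript length and GC content (5 degrees of freedom) as offsets, and leaving out each library.

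Values in every library are given for members called in bIRI against sham or BHBNa_bIRI against bIRI and for Tfeb, Tfe3 and Mcoln1. From the other lysosomal genes, up to 2 a role with the largest called change were named, where groups did not overlap and a group mean reached 5 CPM. One gene that this rule selected is not reported here. Ctsz, Cd63 and other uncalled members were named at an end of a range or for a value beside a named call.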

Additional observations from a re-analysis of the deposited data

How the results depend on the processing

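In BHBNa_bIRI against bIRI, the 5 calls among the 49 genes became 8 with DESeq2 and 10 with all 9 tables, where the averaged library narrows the bIRI spread. Over all genes these fits called 27.2% and 33.2%. The 5 calls became 0 with the compared groups only, 0 with the replicate block and 0 with the length and GC correction, where 1, 0 and 2 of all genes were called, and ranged from 0 to 23 over the fits that left out 1 library each. The unadjusted p was under 0.05 for 12 members as fitted, 6 with the compared groups only, 13 with the block and 10 with the correction. Among the other lysosomal genes the 14 calls became 23 without a filter, 32 with DESeq2, 41 with all 9 tables, 0 with the compared groups only, 0 with the replicate block and 0 with the correction, and ranged from 0 to 58 over the leave-one-out fits. There the unadjusted p was under 0.05 for 42 genes as fitted, 30 with the compared groups only, 36 with the block and 27 with the correction. In BHBNa_bIRI against sham the 33 calls ranged from 21 to 39 over the leave-one-out fits, the lowest without sham replicate 2. In bIRI against sham the 29 calls ranged from 22 to 35 over those fits and from 23 to 32 over the other alternatives. There the length and GC correction changed by more than 1.5-fold the log2 values of Lamp2 (-1.45), Ids (-1.03), Gusb (-0.41), Hexa (-0.59) and Atp6v0c (-0.50), which stayed called. Apart from the fewer libraries or tests that some of these fits have by construction, the cause was not tested.

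Same-numbered libraries correlated between -0.21 and 0.09 in their deviations from the group means, and different-numbered ones between -0.17 and 0.21. Deviations of the 2 bIRI libraries are mirror images, so these values cannot decide whether the numbers pair the libraries. The block serves only as an alternative. Among the fold changes quoted above that were not called as fitted on the 8 libraries, signs turned for Ctsd in bIRI against sham (-0.46 to 1.15 over the leave-one-out fits). They also turned for Tfeb in bIRI against sham (-0.58 to 0.13, and 0.0169 with the length and GC correction). Further turns were those of Mcoln1 in BHBNa_bIRI against bIRI (-0.57 to 0.0262) and Scarb2 in BHBNa_bIRI against sham (-0.18 to 0.0069, and 0.22 with the correction). This list is not complete. Uncalled members such as Ctsl, Cd63, Ctsb and Grn also had bIRI libraries on both sides of the sham mean. The cause was not tested. The floor of 3 counts was at most 0.0815 CPM, and the lowest count of any member in a fitted library was 234, for Sgsh. Total counts were lowest in bIRI replicate 3, at 33477985, with a TMM factor of 1.37. The part of depth in the results was not tested.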
